A study of Homo sapiens with 14 samples.

Results

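MRTFB dN and YAP 5SA, 2 activated forms of transcriptional coactivators, were set directly against each other in MCF-10A cells, an immortalised human mammary epithelial line that does not form tumours. MRTFB dN is a form of MRTFB that cannot bind G-actin. YAP 5SA is a hyperactive form of YAP, in which serines that Hippo pathway kinases phosphorylate are replaced. Each construct was brought in by a retrovirus, and cells were harvested on day 2 after infection, with 2 libraries for MRTFB dN, 2 for YAP 5SA, 2 for the empty pMSCV Hygro vector and 2 for the empty pMSCV Puro vector. The comparison uses 4 of the 14 libraries of the study, and the 4 vector libraries serve only as levels to read the constructs against. The labels do not name the vector that carried each construct, so an effect of vector or drug selection cannot be told apart from that of the construct. Nor do they say whether replicates are separate cultures, so p-values measure the spread between the libraries of the fit, which may be technical.

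Of 34071 loci in the table, 27543 carry a gene name, and 11862 of these reached 1 FPKM (fragments per kilobase of transcript, scaled to the fragments of the library) in at least 2 of the 4 compared libraries. These 11862 loci were tested on log2(FPKM + 1). Differences below are MRTFB dN minus YAP 5SA on that scale, with the standard error (SE) of the fit over 12 libraries, n = 2 libraries a group, and paired values are replicates 1 and 2 in that order. Besides the libraries named above, the 12 hold 2 each of the further forms MRTFB dN Y305A and MRTFB dN Y305A/dPY, which enter the SE through their spread. On this scale the change of a gene with low FPKM is understated.

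MRTF proteins are held in the cytoplasm by monomeric actin. When actin polymerises they enter the nucleus and activate genes with serum response factor (SRF), which binds a DNA element called the CArG box and controls contractile and cytoskeletal genes. YAP and its paralog TAZ are restrained by the Hippo kinases, and in the nucleus they activate genes through TEAD factors, many of which act in growth, matrix and adhesion. Both coactivators respond to cell shape and tension, and several genes are reported as targets of both.

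The introduced genes stood apart in the libraries labelled with them. MKL2, as the table calls the MRTFB gene, stood at 299.5 and 165 FPKM in MRTFB dN, against 3.22 and 3.48 FPKM in YAP 5SA and 3.06 to 6.6 FPKM in the vectors. YAP1 stood at 40.0 and 39.4 FPKM in MRTFB dN, against 625 and 529 FPKM in YAP 5SA and 19.2 to 32.4 FPKM in the vectors. Endogenous and introduced transcripts cannot be separated in these values.

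Keratins, which mark epithelial cells, were present in every library: the basal keratin gene KRT5 stood at 1085 and 874 FPKM in MRTFB dN, 1622 and 1428 FPKM in YAP 5SA and 554 to 5085 FPKM in the vectors, while other keratin genes differed between the constructs as described with the junction genes. Several defining markers of other cell types were at or near 0: the leukocyte gene PTPRC was at 0 in both MRTFB dN libraries and at most 0.0215 FPKM in YAP 5SA, the endothelial gene PECAM1 at most 0.0318 FPKM, and the fibroblast gene PDGFRA at most 0.0126 FPKM in these 4 libraries. None of 4 tested leukocyte markers passed between the constructs. The endothelial marker CDH5 was higher in MRTFB dN, at 2.77 and 2.78 FPKM against 0.145 and 0.0508 FPKM in YAP 5SA and at most 0.0615 FPKM in the vectors (1.78 ± 0.40, adjusted p = 0.010), a call lost in all 4 fits without 1 compared library (1.72 to 1.85, adjusted p at least 0.053). Fibroblast markers are given with the mesenchymal genes. Short RNA loci with a name made up 45.3% and 37.3% of all FPKM in MRTFB dN, against 33.6% and 31.2% in YAP 5SA and 36.8% to 76.1% in the vectors. The table holds no counts, so absolute depth is unknown, but the most frequent ratio between low values put the depth of MRTFB dN at 0.582 and 0.697 times, and that of YAP 5SA at 1.38 and 1.21 times, that of Hygro vector replicate 1. Puro vector replicate 1 stood apart, with 4780 unnamed loci at 1 FPKM or more against 211 to 669 in the other 13 libraries of the study, and it is 1 of the 4 vector columns given below.

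The 2 constructs differed at 2800 of 11862 loci (23.6%, limma adjusted p under 0.05). In MRTFB dN 1802 loci (15.2%) stood higher and 998 (8.41%) lower than in YAP 5SA. Counts of gene lists below are to be read beside these shares of all loci. The higher side also reached further: 115 loci were at least 16-fold higher in MRTFB dN and 18 were at least 16-fold lower. The median difference of all tested loci was 0.03. The counts rest on few libraries. Without 1 of the compared libraries they were 929 and 311 (MRTFB dN replicate 1), 1268 and 556 (MRTFB dN replicate 2), 1019 and 364 (YAP 5SA replicate 1) and 838 and 313 (YAP 5SA replicate 2). In all 4 of these fits, as with all libraries, 749 loci were higher and 215 lower. Genes described below kept their call in all 4 fits unless the text says otherwise, and counts without 1 library are given in this same order of libraries.

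**Figure D1:**
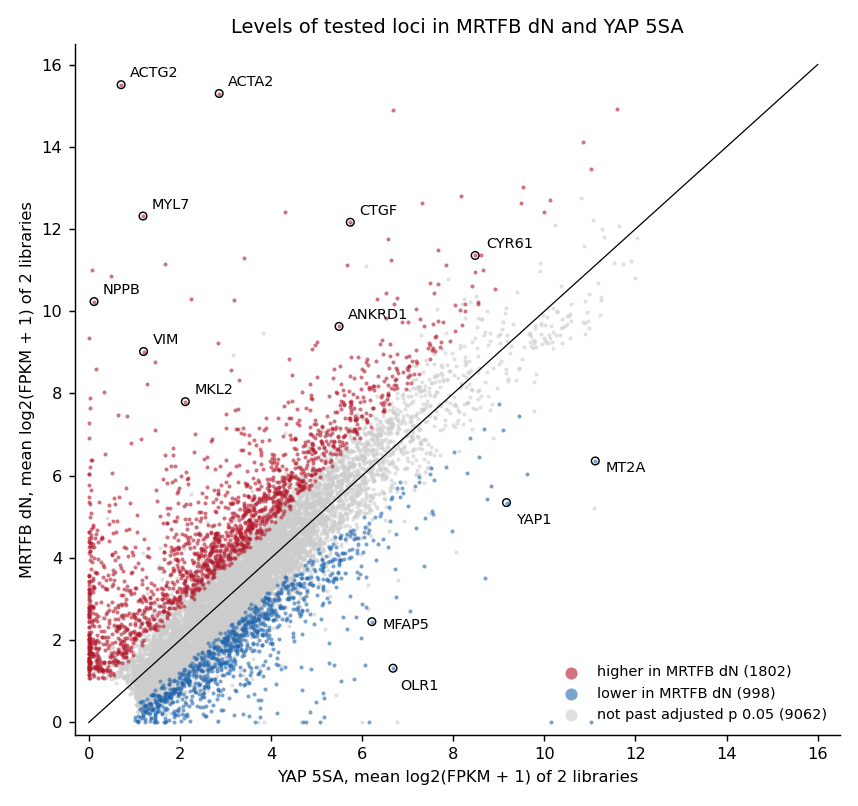
Mean log2(FPKM + 1) of the 2 MRTFB dN libraries (vertical axis) against that of the 2 YAP 5SA libraries (horizontal axis) for the 11862 tested loci, with the line of equal levels. Red points are the 1802 loci higher in MRTFB dN, blue points the 998 lower, and the contractile genes ACTG2, ACTA2 and MYL7 lie farthest above the line.

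Read against the vectors, most of the 1802 higher loci stood above the vectors in MRTFB dN rather than below them in YAP 5SA. Both MRTFB dN libraries exceeded all 4 vector libraries at 1462 of the 1802 (81.1%), a pattern found at 23.6% of all tested loci. At 166 of these both YAP 5SA libraries lay above all vectors as well, at 168 both lay below all vectors, and at 1128 neither held. The 998 lower loci divided differently. Both MRTFB dN libraries lay below all 4 vectors at 551 (55.2%), against 15.2% of all tested loci, and both YAP 5SA libraries lay above all vectors at 423 (42.4%), against 14.2%. At 127 loci the constructs lay on opposite sides of the vectors, MRTFB dN below and YAP 5SA above. Among the 9062 loci that did not pass the test, 560 were above all vectors in both constructs and 345 were below in both. These positions compare both constructs with the same 4 vector libraries and carry no test. The higher and lower loci were chosen on the same MRTFB dN and YAP 5SA values, so part of their shares follows from that choice. The shares of all tested loci include the chosen loci.

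**Figure D2:**
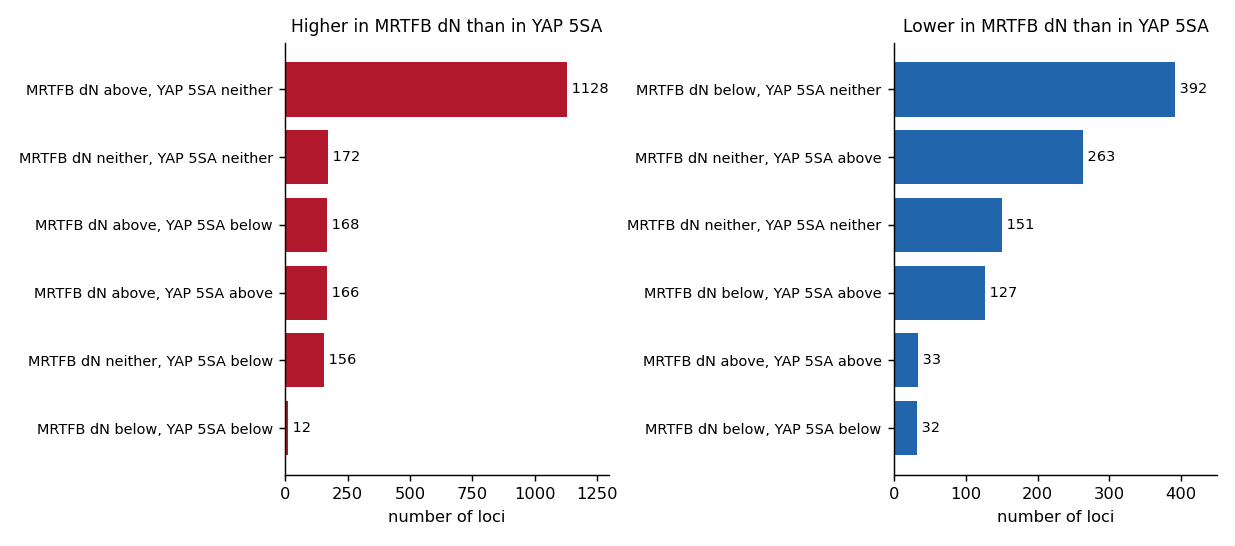
Number of loci (horizontal axis) by where both libraries of MRTFB dN and both libraries of YAP 5SA lie relative to the range of the 4 vector libraries, for loci higher in MRTFB dN (left, red) and lower in MRTFB dN (right, blue). Above or below means that both libraries lie outside the vectors on that side, and neither covers all other loci. MRTFB dN above with YAP 5SA neither is the most frequent class on the left (1128 loci), and MRTFB dN below with YAP 5SA neither on the right (392 loci).

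6 stretches of DNA are shown because the results turn on these genes: 4 genes of the SRF programme (ACTG2, ACTC1, MYL7 and SRF itself) and 2 genes reported as direct TEAD targets that were high with both constructs (CTGF and ANKRD1). Each is the RefSeq promoter on GRCh38.p14, from 250 bases before to 50 bases after the annotated start, read 5′ to 3′ on the gene's strand. Capitals mark exact matches to the CArG box in the first 4 sequences and to the TEAD motif GGAATG in the last 2. Positions are those of a match's first base, counted upstream of the start. The promoters lie at chr2:73892758-73893057 on the plus strand (ACTG2, matches at 110 and 73), chr15:34795500-34795799 on the minus strand (ACTC1, 109), chr7:44141283-44141582 on the minus strand (MYL7, 61), chr6:43171019-43171318 on the plus strand (SRF, 30 and 10), chr6:131951323-131951622 on the minus strand (CTGF, listed by RefSeq as CCN2, 169, 104 and 95) and chr10:90921038-90921337 on the minus strand (ANKRD1, 220 and 128).
ACTG2: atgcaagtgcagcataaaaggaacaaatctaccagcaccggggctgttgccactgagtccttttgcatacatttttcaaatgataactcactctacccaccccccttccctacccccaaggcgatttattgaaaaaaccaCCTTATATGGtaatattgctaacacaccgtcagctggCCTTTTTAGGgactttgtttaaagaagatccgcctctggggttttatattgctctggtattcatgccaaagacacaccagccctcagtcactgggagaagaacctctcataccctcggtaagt
ACTC1: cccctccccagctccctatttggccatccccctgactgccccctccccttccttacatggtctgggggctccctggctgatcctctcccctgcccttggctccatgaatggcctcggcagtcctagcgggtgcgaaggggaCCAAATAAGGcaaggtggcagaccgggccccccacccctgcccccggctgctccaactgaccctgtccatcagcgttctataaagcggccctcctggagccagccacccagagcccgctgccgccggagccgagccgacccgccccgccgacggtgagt
MYL7: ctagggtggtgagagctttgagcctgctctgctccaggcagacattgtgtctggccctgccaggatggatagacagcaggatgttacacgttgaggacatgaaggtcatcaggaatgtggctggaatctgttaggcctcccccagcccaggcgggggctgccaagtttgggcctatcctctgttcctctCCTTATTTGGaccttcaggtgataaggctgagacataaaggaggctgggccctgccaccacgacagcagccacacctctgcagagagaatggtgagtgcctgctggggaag
SRF: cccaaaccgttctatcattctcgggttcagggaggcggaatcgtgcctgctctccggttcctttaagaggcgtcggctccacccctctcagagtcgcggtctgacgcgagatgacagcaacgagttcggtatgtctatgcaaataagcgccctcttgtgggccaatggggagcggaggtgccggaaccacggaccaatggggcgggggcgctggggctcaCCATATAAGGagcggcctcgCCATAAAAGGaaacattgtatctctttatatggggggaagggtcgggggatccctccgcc
CTGF: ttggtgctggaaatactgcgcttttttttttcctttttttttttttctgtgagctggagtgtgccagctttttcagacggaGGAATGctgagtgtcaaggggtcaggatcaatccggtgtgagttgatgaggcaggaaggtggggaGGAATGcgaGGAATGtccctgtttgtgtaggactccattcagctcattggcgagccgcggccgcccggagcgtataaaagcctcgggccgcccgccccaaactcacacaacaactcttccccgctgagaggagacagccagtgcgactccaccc
ANKRD1: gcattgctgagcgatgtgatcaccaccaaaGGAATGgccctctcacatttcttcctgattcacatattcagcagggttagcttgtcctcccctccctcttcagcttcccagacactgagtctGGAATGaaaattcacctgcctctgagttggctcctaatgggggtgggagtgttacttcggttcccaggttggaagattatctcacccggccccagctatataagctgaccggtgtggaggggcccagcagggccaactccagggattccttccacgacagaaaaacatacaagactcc
In the whole RefSeq table a CArG box lay in 454 of 35116 promoters (1.29%), and GGAATG, or CATTCC for the other strand, in 4928 (14%). Of the 33 tested loci of the contractile list described next, 28 had a promoter in the table (84.8%), and a CArG box lay in 10 of them: ACTA1, ACTC1, ACTG1, ACTG2, CNN2, FHL2, FLNA, MYLK, SRF and TPM4. GGAATG or CATTCC lay in 7 of the same 28 promoters (25%). Genes of the list are there because they are reported as SRF targets, so both shares are a description of the list. The same check over all loci called in the comparison is void, because only 78.2% of the higher and 77.9% of the lower loci with 1 gene name had a promoter in the table.

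Genes of the contractile apparatus were among the largest differences on the MRTFB dN side. Of 33 tested genes reported as MRTF/SRF targets, 31 were higher and none lower in MRTFB dN, with a median difference of 3.35. Of all loci 15.2% were higher and 8.41% lower. FHL2 (0.62, adjusted p = 0.38) and MYH10 (-0.16, adjusted p = 0.66) did not pass. Both MRTFB dN libraries exceeded all 4 vectors at 32 of the 33, and both YAP 5SA libraries did so at 6. The count was 22, 29, 27 and 23 without 1 library, and 22 genes passed in every fit.

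The smooth muscle gamma actin gene ACTG2 stood at 59840 and 36370 FPKM in MRTFB dN, against 1.33 and 0.147 FPKM in YAP 5SA, with 0.254 and 2.55 FPKM in the Hygro vector and 1.21 and 1.12 FPKM in the Puro vector (difference 14.80 ± 0.48, adjusted p = 2.1e-08). The MRTFB dN pair lay far above the vectors, and YAP 5SA did not exceed them. ACTA2, the smooth muscle alpha actin, stood at 52270 and 30940 FPKM in MRTFB dN, against 7.47 and 5.25 FPKM in YAP 5SA and 4.26 to 8.18 FPKM in the vectors (12.43 ± 0.39, adjusted p = 1.9e-08). The locus PAFAH1B2,SIDT2,TAGLN, which merges 3 genes and holds transgelin, an actin-binding protein of smooth muscle, stood at 41590 and 22310 FPKM in MRTFB dN, against 127 and 80.6 FPKM in YAP 5SA and 25.6 to 271 FPKM in the vectors (8.22 ± 0.65, adjusted p = 1.1e-05). Actin genes have near-identical coding parts, so fragments of one may have been assigned to another.

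Genes known from the heart were among those with the largest differences. ACTC1, the cardiac actin, stood at 1930 and 2176 FPKM in MRTFB dN, against 0.0876 FPKM and a listed 0 in YAP 5SA and at most 0.0850 FPKM in the vectors (10.94 ± 0.20, adjusted p = 4.8e-10). MYL7, an atrial myosin light chain, stood at 5603 and 4634 FPKM in MRTFB dN, against 1.73 and 0.908 FPKM in YAP 5SA (11.12 ± 0.45, adjusted p = 1.0e-07). NPPB, which encodes a natriuretic peptide of the heart, stood at 1113 and 1304 FPKM in MRTFB dN, against 0.0698 and 0.0979 FPKM in YAP 5SA and at most 0.377 FPKM in the vectors (10.12 ± 0.22, adjusted p = 1.1e-09). For each of these 3 genes both MRTFB dN libraries lay above all vectors, and at least 1 YAP 5SA library did not.

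Regulators of contraction followed. MYLK, the kinase that phosphorylates myosin light chain, stood at 2725 and 1281 FPKM in MRTFB dN, against 0.380 and 0.410 FPKM in YAP 5SA (10.39 ± 0.41, adjusted p = 9.4e-08). The regulatory light chain gene MYL9 stood at 2835 and 2237 FPKM in MRTFB dN, against 12.6 and 7.25 FPKM in YAP 5SA and 0.606 to 38.4 FPKM in the vectors (7.89 ± 0.71, adjusted p = 3.1e-05). LMOD1, a leiomodin that nucleates actin filaments in smooth muscle, stood at 461 and 319 FPKM in MRTFB dN, against 0.163 and 0.0722 FPKM in YAP 5SA (8.43 ± 0.23, adjusted p = 6.5e-09). Not every gene of the differentiated smooth muscle programme took part: calponin 1 (CNN1) was at most 0.0571 FPKM in the 8 libraries, and MYOCD, the muscle-restricted relative of the MRTFs, was listed at 0 in all 8.

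Tropomyosin TPM1 stood at 8948 and 5667 FPKM in MRTFB dN, against 311 and 269 FPKM in YAP 5SA and 17.3 to 118 FPKM in the vectors (4.62 ± 0.64, adjusted p = 0.00062). TPM1, TPM2 and caldesmon (CALD1) are members in which YAP 5SA also stood above all 4 vectors. CALD1 stood at 1342 and 1190 FPKM in MRTFB dN, against 76.1 and 82.9 FPKM in YAP 5SA and 26.6 to 49.2 FPKM in the vectors (3.98 ± 0.38, adjusted p = 4.6e-05). Filamin A (FLNA, 3.82 ± 0.67) and vinculin (VCL, 2.98 ± 0.38), which crosslink actin and tie it to adhesions, lay within the vector range in YAP 5SA.

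**Figure D3:**
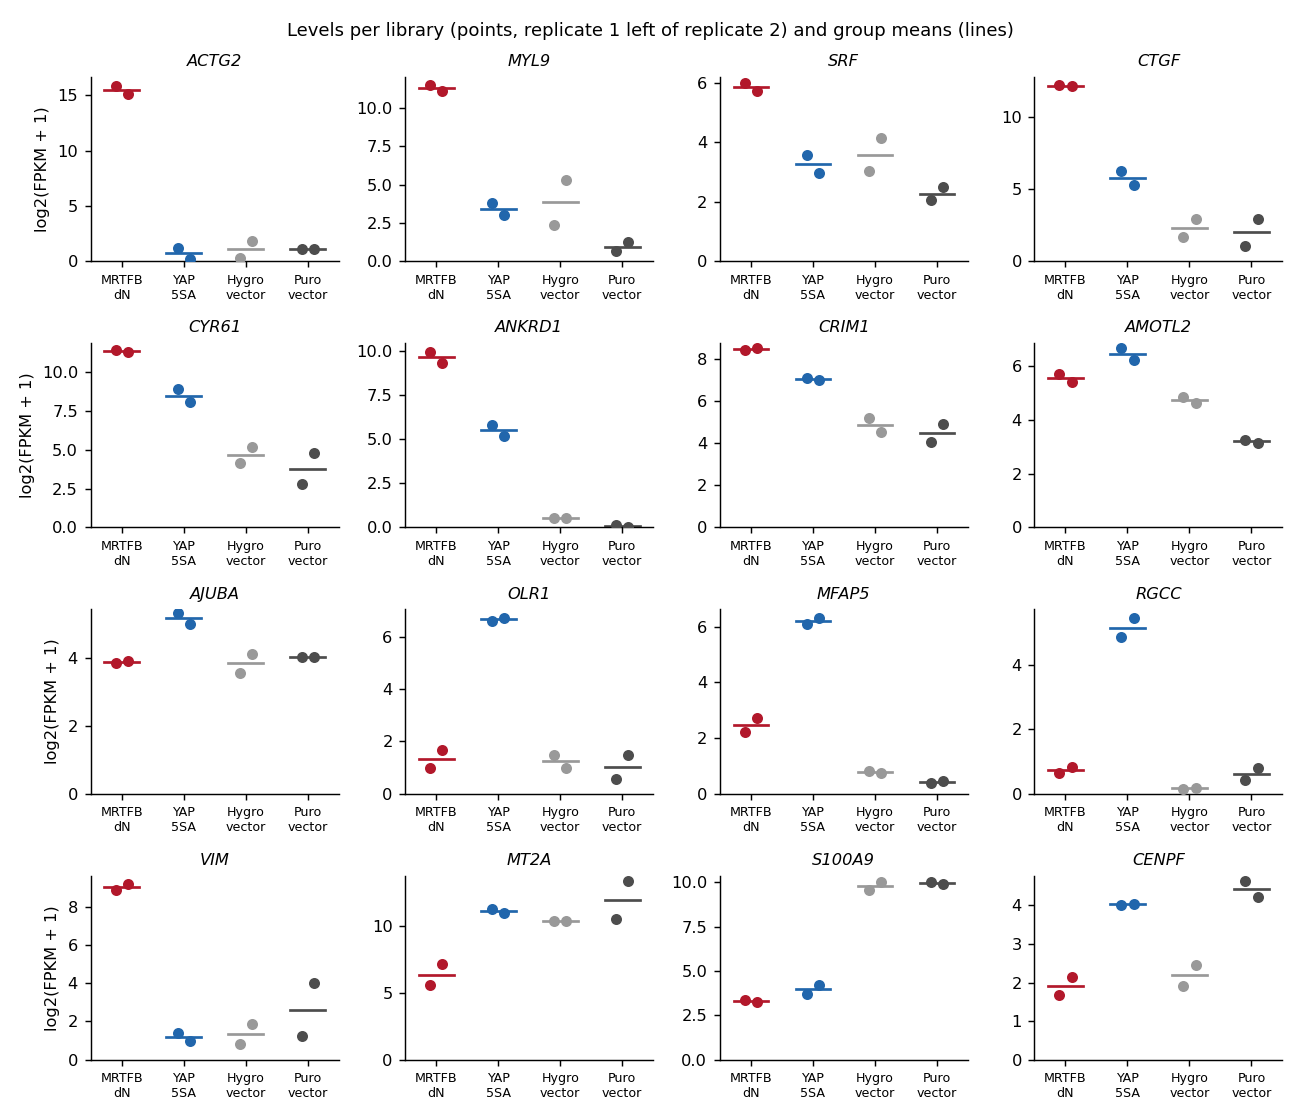
Levels of 16 genes as log2(FPKM + 1) (vertical axes, each with its own scale from 0) in the 2 libraries each of MRTFB dN, YAP 5SA, Hygro vector and Puro vector. Contractile genes such as ACTG2 are high in MRTFB dN alone, CTGF, CYR61 and ANKRD1 are high in both constructs, OLR1 and RGCC are high in YAP 5SA, and S100A9 is low in both.

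Among the factors themselves, SRF was higher in MRTFB dN, at 62.5 and 51.1 FPKM against 10.9 and 6.85 FPKM in YAP 5SA and 3.13 to 16.4 FPKM in the vectors (2.58 ± 0.37, adjusted p = 0.00070). TEAD1, a DNA-binding partner of YAP, stood above the vectors with both constructs, at 26.1 and 23.5 FPKM in MRTFB dN, 48.1 and 62.3 FPKM in YAP 5SA and 6.06 to 11.2 FPKM in the vectors. It was lower in MRTFB dN than in YAP 5SA by -1.11 ± 0.35 (adjusted p = 0.041), and this call was lost without any 1 of the 4 compared libraries, with differences between -1.30 and -0.93 (adjusted p from 0.095 to 0.23). TEAD2 (1.97 ± 0.44) and WWTR1, the gene of TAZ (1.23 ± 0.29), were higher in MRTFB dN, with the same loss in each of the 4 fits. TEAD2 then lay between 1.90 and 2.03, with an adjusted p of at least 0.052, and WWTR1 between 1.13 and 1.34, with an adjusted p of at least 0.060. TEAD3 (0.09), TEAD4 (0.10) and the second MRTF gene MKL1 (-0.23) did not pass.

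Genes reported as YAP/TEAD targets were not a YAP 5SA block. Of 33 tested, 7 were higher and 7 lower in MRTFB dN, beside 15.2% and 8.41% of all loci, and the median difference was -0.38. Both MRTFB dN libraries exceeded all vectors at 16 of the 33 and both YAP 5SA libraries did at 20, and 12 of the 33 were above the vectors with both constructs. The higher count was 5, 6, 6 and 5 without 1 library, and the lower count 1, 5, 3 and 4.

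The best known members were higher in MRTFB dN than in YAP 5SA. CTGF, a secreted matricellular protein, stood at 4712 and 4472 FPKM in MRTFB dN, against 74.1 and 37.0 FPKM in YAP 5SA, with 2.23 and 6.65 FPKM in the Hygro vector and 1.12 and 6.54 FPKM in the Puro vector (6.42 ± 0.58, adjusted p = 3.2e-05). The libraries fall into 3 separate levels, with YAP 5SA above every vector library and MRTFB dN far above YAP 5SA. ANKRD1, a cardiac ankyrin repeat protein, showed the same order, at 982 and 639 FPKM in MRTFB dN, 54.6 and 35.5 FPKM in YAP 5SA and at most 0.457 FPKM in the vectors (4.14 ± 0.36, adjusted p = 2.2e-05). Within the 300 bases shown above, the promoters of both genes hold GGAATG and no exact match to the CArG box. The MYL7 promoter shown there also holds a GGAATG, left unmarked. The same search found a CArG box in only 10 of 28 promoters of the contractile list, and none in those of ACTA2, TPM1 and VCL. Which factor acts on CTGF and ANKRD1 here was not tested. The closely related CYR61 stood at 2760 and 2491 FPKM in MRTFB dN, 478 and 266 FPKM in YAP 5SA and 5.85 to 35.1 FPKM in the vectors (2.88 ± 0.62, adjusted p = 0.0079). The CYR61 call was lost without MRTFB dN replicate 1 (2.80, adjusted p = 0.070) and without YAP 5SA replicate 2 (2.45, adjusted p = 0.081).

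3 further members of the list were higher in MRTFB dN in every fit. TGFB2, a TGF-beta ligand in a locus with TGFB2-OT1, stood at 54.6 and 53.2 FPKM in MRTFB dN, 7.80 and 5.34 FPKM in YAP 5SA and 0.372 to 3.43 FPKM in the vectors (2.88 ± 0.49, adjusted p = 0.0022). FGF1, a fibroblast growth factor, stood at 77.3 and 56.8 FPKM in MRTFB dN, against 0.533 and 0.337 FPKM in YAP 5SA (5.55 ± 0.26, adjusted p = 2.7e-07). RBMS3, an RNA-binding protein, stood at 23.4 and 22.1 FPKM in MRTFB dN, against 0.0680 FPKM and a listed 0 in YAP 5SA (4.52 ± 0.19, adjusted p = 1.2e-07). In FGF1 and RBMS3 the YAP 5SA libraries lay within the vector range, although the list holds them as reported YAP/TEAD targets. CRIM1, a transmembrane protein that binds growth factors, was higher at 337 and 363 FPKM in MRTFB dN, against 136 and 126 FPKM in YAP 5SA and 15.3 to 35.4 FPKM in the vectors (1.41 ± 0.35, adjusted p = 0.015), a call lost in each fit without 1 library (1.36 to 1.46, adjusted p from 0.069 to 0.096).

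The 7 members that were lower in MRTFB dN differed by less than 2 on the log2 scale. DOCK5, a guanine nucleotide exchange factor for Rac, stood at 3.20 and 6.37 FPKM in MRTFB dN, against 21.5 and 19.0 FPKM in YAP 5SA and 7.37 to 20.5 FPKM in the vectors (-1.93 ± 0.36, adjusted p = 0.0038), so that MRTFB dN lay below the vectors. DOCK5 did not pass without MRTFB dN replicate 1 (-1.53, adjusted p = 0.053). COL4A3, a type IV collagen chain, and TEAD1 were above the vectors with both constructs. COL4A3 (-1.52 ± 0.22, adjusted p = 0.00077) alone of the 7 kept its call in all 4 fits. AJUBA, a LIM protein that inhibits the LATS kinases, stood at 13.4 and 13.9 FPKM in MRTFB dN, which is within the vector range, against 39.4 and 31.1 FPKM in YAP 5SA and 10.8 to 16.4 FPKM in the vectors (-1.29 ± 0.28, adjusted p = 0.0085). Its call was lost without MRTFB dN replicate 1 (-1.27, adjusted p = 0.059) and without YAP 5SA replicate 1 (-1.13, adjusted p = 0.077). IGFBP3 (-1.59 ± 0.36, adjusted p = 0.010), ASAP1 (-1.38) and DLC1 (-0.94) were likewise above the vectors in both YAP 5SA libraries and not in both MRTFB dN libraries. IGFBP3 was lost without the same 2 libraries as AJUBA (-1.36 and -1.21, adjusted p = 0.10 and 0.095). ASAP1 was lost without MRTFB dN replicate 1 (-1.20, adjusted p = 0.062) and YAP 5SA replicate 2 (-1.32, adjusted p = 0.051), and DLC1 in all 4 fits (-1.04 to -0.85, adjusted p at least 0.081). AMOTL2, an angiomotin that restrains YAP, did not pass: it stood at 51.8 and 41.9 FPKM in MRTFB dN, 101 and 74.5 FPKM in YAP 5SA and 7.89 to 28 FPKM in the vectors (-0.88 ± 0.32, adjusted p = 0.067). LATS2 (-0.70, adjusted p = 0.25) and AXL (-1.01, adjusted p = 0.33) did not pass either.

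In the Hippo pathway itself, 1 of 18 tested genes was higher and 3 were lower in MRTFB dN, beside 15.2% and 8.41% of all loci. WWC1, a scaffold that promotes LATS activity, stood at 16.6 and 13.9 FPKM in MRTFB dN, against 58.7 and 48.5 FPKM in YAP 5SA and 7.42 to 39.6 FPKM in the vectors (-1.75 ± 0.34, adjusted p = 0.0045). The adaptor SAV1 (-1.21) and the kinase STK4 (-0.69) passed with all libraries and in none of the 4 fits without 1 of them (SAV1 -1.26 to -1.16, adjusted p at least 0.079, and STK4 -0.77 to -0.62, adjusted p at least 0.11). The protocadherin gene FAT4 was higher (0.90 ± 0.18, adjusted p = 0.0053), except without YAP 5SA replicate 2 (0.88, adjusted p = 0.050).

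Short RNA loci aside, the largest differences on the YAP 5SA side lay outside the target list. With all libraries in the fit, the short RNA loci SNORD35B (-11.03), MIR4516 (-10.14) and SNORA2A (-6.15) differed by more than OLR1, given next. Each was at a listed 0 in both MRTFB dN libraries. OLR1, a lectin-like scavenger receptor, stood at 0.981 and 2.14 FPKM in MRTFB dN, against 96.2 and 107 FPKM in YAP 5SA, with 1.79 and 0.985 FPKM in the Hygro vector and 0.484 and 1.77 FPKM in the Puro vector (-5.36 ± 0.40, adjusted p = 6.8e-06). RGCC, a regulator of the cell cycle, showed the same arrangement at 0.550 and 0.761 FPKM in MRTFB dN, against 27.8 and 42.5 FPKM in YAP 5SA and 0.107 to 0.746 FPKM in the vectors (-4.42 ± 0.24, adjusted p = 6.3e-07). HSD3B1, an enzyme of steroid hormone synthesis, stood at a listed 0 and 0.428 FPKM in MRTFB dN, against 29.6 and 26.1 FPKM in YAP 5SA and at most 0.547 FPKM in the vectors (-4.59 ± 0.25, adjusted p = 6.3e-07).

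In a second set MRTFB dN was also below the vectors. ZBED2, a zinc finger gene, stood at 0.0406 and 0.136 FPKM in MRTFB dN, against 33.5 and 35.6 FPKM in YAP 5SA and 0.300 to 2.80 FPKM in the vectors (-5.03 ± 0.59, adjusted p = 0.00018). The locus ITGB2,LINC01547, which holds the beta chain of leukocyte integrins, stood at 1.28 and 0.757 FPKM in MRTFB dN, against 53.3 and 39.1 FPKM in YAP 5SA and 1.68 to 6.31 FPKM in the vectors (-4.54 ± 0.53, adjusted p = 0.00018). The noncoding LINC01468 (-4.76 ± 0.33) followed the same order. MFAP5, a glycoprotein of elastic microfibrils, differed from all of these in that both constructs were above the vectors, with 3.60 and 5.50 FPKM in MRTFB dN, 67.8 and 79.1 FPKM in YAP 5SA and 0.295 to 0.764 FPKM in the vectors (-3.76 ± 0.28, adjusted p = 7.8e-06).

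Of 4 tested metallothioneins, small metal-binding proteins, 2 were lower in MRTFB dN and none higher, beside 8.41% and 15.2% of all loci. MT1E stood at 5.23 and 20.2 FPKM in MRTFB dN, against 401 and 434 FPKM in YAP 5SA and 158 to 1288 FPKM in the vectors (-5.18 ± 0.64, adjusted p = 0.00027). MT2A stood at 47.5 and 138 FPKM in MRTFB dN, against 2503 and 1972 FPKM in YAP 5SA and 1285 to 10520 FPKM in the vectors (-4.76 ± 0.90, adjusted p = 0.0040), and did not pass without MRTFB dN replicate 1 (-3.998, adjusted p = 0.076). In both genes YAP 5SA was within the vector range. The members share much of their sequence, so fragments of one may have been assigned to another. MT1X (-2.90, adjusted p = 0.054) and MT1F (0.00052, adjusted p = 1.00) did not pass.

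Of 23 tested integrin and focal adhesion genes 11 were higher in MRTFB dN and none lower (median 1.28), beside the 15.2% of all loci that were higher, with 10, 9, 9 and 9 without 1 library. The locus ITGA5,ZNF385A, with the alpha chain of the fibronectin receptor, stood at 5547 and 5393 FPKM in MRTFB dN, against 25.9 and 13.6 FPKM in YAP 5SA and 27.9 to 231 FPKM in the vectors (8.11 ± 0.79, adjusted p = 4.9e-05). YAP 5SA was below every vector library here. ITGB3, the beta chain of the vitronectin receptor, stood at 17.2 and 26.5 FPKM in MRTFB dN, against 0.0941 and 0.0992 FPKM in YAP 5SA and at most 0.215 FPKM in the vectors (4.35 ± 0.22, adjusted p = 4.1e-07). The cytoplasmic linkers FERMT2 (kindlin 2, 3.27 ± 0.22), ILK (integrin-linked kinase, 3.10 ± 0.36) and TES (testin, 2.49 ± 0.35) were higher as well. ITGB4, a chain of the hemidesmosome integrin, did not pass, at 69.9 and 90.7 FPKM in MRTFB dN, 213 and 139 FPKM in YAP 5SA and 150.4 to 419 FPKM in the vectors (-1.10, adjusted p = 0.13).

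Most matrix genes that passed were higher in MRTFB dN, beside 15.2% of all loci higher and 8.41% lower. Of 18 tested, 9 were higher and 2 lower in MRTFB dN (median 1.35), with 4, 6, 5 and 4 higher without 1 library. Tenascin C, in the locus LOC101928748,TNC, stood at 234 and 288 FPKM in MRTFB dN, against 0.404 and 0.134 FPKM in YAP 5SA and 0.873 to 22.7 FPKM in the vectors (7.69 ± 0.86, adjusted p = 0.00014). The collagen gene COL8A1, in a locus with MIR548G, stood at 2180 and 2284 FPKM in MRTFB dN, 58.2 and 42.5 FPKM in YAP 5SA and 2.50 to 37.7 FPKM in the vectors (5.46 ± 0.73, adjusted p = 0.00049). The 2 lower members, MFAP5 and fibrillin 1 (FBN1, -1.11), are both microfibril genes. FBN1 did not pass without MRTFB dN replicate 1 (-0.94, adjusted p = 0.099) or YAP 5SA replicate 1 (-0.91, adjusted p = 0.11). Fibronectin (FN1) was above all vectors with both constructs and did not pass between them, at 771 and 1713 FPKM in MRTFB dN, 412 and 207 FPKM in YAP 5SA and 3.38 to 64.3 FPKM in the vectors (1.97 ± 1.02, adjusted p = 0.18).

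Of 3 tested fibroblast markers COL1A1 and the COL3A1 locus were higher and FAP was lower in MRTFB dN, while the 9 in the list summed to 7.596 and 17.15 FPKM in MRTFB dN, against 65.5 and 72.1 FPKM in YAP 5SA and 10.6 to 50.4 FPKM in the vectors. Of the 3 tested markers, the COL3A1 locus alone kept its call in all 4 fits without 1 library. The mesenchymal filament gene VIM was higher in MRTFB dN, at 461 and 584 FPKM in MRTFB dN, against 1.67 and 0.987 FPKM in YAP 5SA and 0.742 to 15.3 FPKM in the vectors (7.82 ± 0.82, adjusted p = 9.2e-05). N-cadherin (CDH2) was higher too, at 30.5 and 25.4 FPKM in MRTFB dN, 4.39 and 3.21 FPKM in YAP 5SA and 0.492 to 3.06 FPKM in the vectors (2.60 ± 0.45, adjusted p = 0.0025). The transition factor TWIST1 was lower, at 0.502 and 0.560 FPKM in MRTFB dN, against 3.79 and 3.05 FPKM in YAP 5SA (-1.52 ± 0.21, adjusted p = 0.00049), while the vectors ran from 0.552 to 3.93 FPKM. The factor SNAI2 (-1.37, adjusted p = 0.015) was also lower, but in none of the 4 fits without 1 library (-1.45 to -1.29, adjusted p at least 0.064).

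Epithelial junction genes were more often higher than lower in MRTFB dN, as were all tested loci (15.2% higher and 8.41% lower). Of 24 tested, 7 were higher and 1 lower in MRTFB dN (median 0.64), and the higher count was 2, 4, 2 and 2 without 1 library. P-cadherin (CDH3) stood at 433 and 446 FPKM in MRTFB dN, against 95.4 and 63.0 FPKM in YAP 5SA and 79.7 to 304 FPKM in the vectors (2.49 ± 0.46, adjusted p = 0.0035). Desmoplakin (DSP), which anchors keratin to desmosomes, was higher by 2.01 ± 0.35 (adjusted p = 0.0026). E-cadherin (CDH1) passed with all libraries, at 312 and 250.1 FPKM in MRTFB dN and 116 and 84.0 FPKM in YAP 5SA (1.49 ± 0.39, adjusted p = 0.020), and in none of the 4 fits without 1 library (1.27 to 1.72, adjusted p at least 0.052). Of 14 tested keratin loci 3 were higher and 1 lower, and 1 and 1 in each fit without 1 library. KRT17, a keratin of basal and injured epithelia, stood at 43210 and 22200 FPKM in MRTFB dN, against 4021 and 2366 FPKM in YAP 5SA and 606 to 12740 FPKM in the vectors (3.33 ± 1.04, adjusted p = 0.041), and did not pass in any of those fits (2.85 to 3.81, adjusted p at least 0.10). KRT80 stood at 234 and 139.7 FPKM in MRTFB dN, against 8.65 and 5.76 FPKM in YAP 5SA and 0.451 to 9.59 FPKM in the vectors (4.49 ± 0.39, adjusted p = 2.2e-05). KRT4, a keratin of mucosal epithelia, stood at 5.05 and 0.140 FPKM in MRTFB dN, against 60.6 and 71.3 FPKM in YAP 5SA and 0.464 to 28.1 FPKM in the vectors (-4.67 ± 0.80, adjusted p = 0.0023).

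Squamous differentiation genes mark the cornifying layers of stratified epithelia. Of 19 tested, 1 was higher (OVOL1) and 2 were lower (SBSN and SERPINB13) in MRTFB dN, none of them in any fit without 1 library. The shares of the list, 5.26% higher and 10.5% lower, stand beside 15.2% and 8.41% of all loci, so the lower share was near that of all loci. Of the 19, 8 in MRTFB dN and 5 in YAP 5SA were below all 4 vectors, beside 15.2% and 9.51% of all loci. The calprotectin gene S100A9 stood at 9.48 and 8.65 FPKM in MRTFB dN, 12.2 and 17.8 FPKM in YAP 5SA and 754 to 1050 FPKM in the vectors, with no call between the constructs (-0.65 ± 0.42, adjusted p = 0.28). Its partner S100A8 was at most 2.47 FPKM with either construct and 189 to 338 FPKM in the vectors (0.25 ± 1.20, adjusted p = 0.90).

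**Figure D4:**
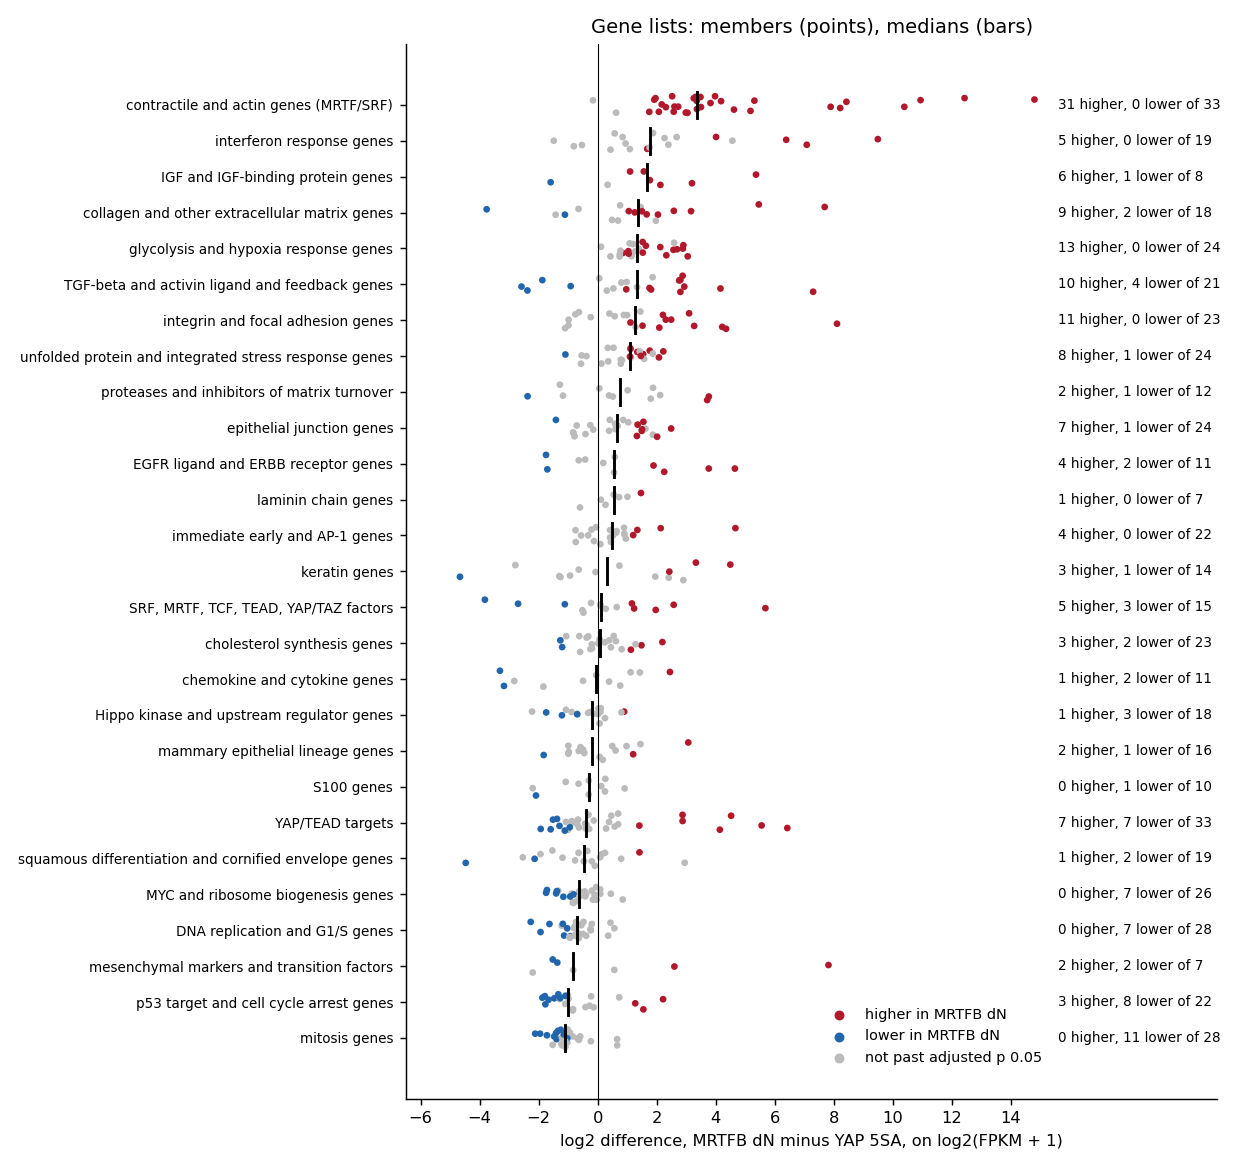
Log2 difference (MRTFB dN minus YAP 5SA, horizontal axis) of each tested member of the gene lists with at least 5 tested loci, ordered by list median (black bars). Counts at the right give members higher and lower in MRTFB dN. The contractile list has the highest median (3.35) and the mitosis list the lowest (-1.12).

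Part of the mitosis genes were lower in MRTFB dN. Of 28 tested, 11 were lower and none higher (median -1.12), beside the 8.41% of all loci that were lower. Both MRTFB dN libraries lay below both YAP 5SA libraries at 26 of the 28, beside 71.5% of all loci whose libraries do not overlap in either direction. The count of 11 fell to 1, 5, 5 and 1 without 1 library. At 14 of the 28 YAP 5SA exceeded all vectors, and at 1 MRTFB dN was below all of them. CENPF, a kinetochore protein, stood at 2.20 and 3.39 FPKM in MRTFB dN, against 15.1 and 15.5 FPKM in YAP 5SA (-2.12 ± 0.36, adjusted p = 0.0021). The vectors disagreed for this gene, with 2.79 and 4.46 FPKM in the Hygro vector and 23.7 and 17.7 FPKM in the Puro vector. HMMR, a spindle-associated receptor, stood at 3.99 and 5.60 FPKM in MRTFB dN, 15.2 and 21.1 FPKM in YAP 5SA and 2.27 to 12.8 FPKM in the vectors (-1.72 ± 0.37, adjusted p = 0.0080). HMMR did not pass without MRTFB dN replicate 1 (-1.52, adjusted p = 0.090) or YAP 5SA replicate 2 (-1.50, adjusted p = 0.081). In bulk RNA, fewer dividing cells and less of these transcripts per cell cannot be told apart.

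DNA replication genes showed a smaller difference. The counts of this paragraph are to be read beside 15.2% of all loci higher and 8.41% lower. Of 28 tested, 7 were lower and none higher in MRTFB dN (median -0.71), and 0, 1, 0 and 3 were lower without 1 library. YAP 5SA exceeded all vectors at 15 of them. The replication-linked methylation factor UHRF1 stood at 1.94 and 2.99 FPKM in MRTFB dN, 18.4 and 13 FPKM in YAP 5SA and 3.83 to 8.29 FPKM in the vectors (-2.27 ± 0.49, adjusted p = 0.0080), and was lost without MRTFB dN replicate 1 (-2.05, adjusted p = 0.092) and without YAP 5SA replicate 1 (-2.03, adjusted p = 0.067). Of 26 MYC and ribosome biogenesis genes 7 were lower and none higher (median -0.62), with 2 in each fit without 1 library. There MRTFB dN was below all vectors at 9 and YAP 5SA above at 1. GNL3, a nucleolar GTPase whose locus also holds SNORD19B and SNORD69, stood at 12.6 and 15.8 FPKM in MRTFB dN, against 38.0 and 38.7 FPKM in YAP 5SA and 34.0 to 49.2 FPKM in the vectors (-1.38 ± 0.26, adjusted p = 0.0037).

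Of 22 tested genes of p53 signalling and cell cycle arrest, 3 were higher and 8 lower in MRTFB dN (median -1), beside 15.2% and 8.41% of all loci, with 1, 3, 2 and 1 higher and 3, 6, 4 and 3 lower without 1 library. The antiproliferative gene BTG2 stood at 8.94 and 11.2 FPKM in MRTFB dN, against 34.1 and 39.4 FPKM in YAP 5SA and 7.53 to 24.4 FPKM in the vectors (-1.77 ± 0.27, adjusted p = 0.0012). FDXR, a mitochondrial reductase (-1.67 ± 0.24), and the kinase gene PLK3 (-1.79 ± 0.31) were lower and below all vectors in MRTFB dN. PMAIP1, which encodes the death factor NOXA, was higher, at 21.7 and 17.8 FPKM in MRTFB dN, against 3.09 and 3.85 FPKM in YAP 5SA and 2.26 to 7.79 FPKM in the vectors (2.21 ± 0.35, adjusted p = 0.0013). The cell cycle inhibitor CDKN1A stood at 610.1 and 497 FPKM in MRTFB dN, against 185 and 190.5 FPKM in YAP 5SA and 43.7 to 353 FPKM in the vectors (1.55 ± 0.37, adjusted p = 0.014), a call kept only without MRTFB dN replicate 2 (1.69, adjusted p = 0.038) among the 4 fits (1.40 to 1.57, adjusted p at least 0.081 in the others).

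Glycolysis and hypoxia response genes were higher in MRTFB dN at 13 of 24, with none lower (median 1.33), and at 6, 11, 7 and 6 without 1 library. Both MRTFB dN libraries exceeded both YAP 5SA libraries at 22 of the 24, beside 71.5% of all loci whose libraries do not overlap in either direction. Of all loci 15.2% were higher and 8.41% lower in MRTFB dN. MRTFB dN was above all vectors at 11 of the 24 genes, and YAP 5SA below all vectors at 6. The glucose transporter SLC2A1 stood at 150.0 and 104 FPKM in MRTFB dN, against 26.8 and 15.3 FPKM in YAP 5SA and 37.0 to 75.9 FPKM in the vectors (2.57 ± 0.42, adjusted p = 0.0017). Hexokinase 2 (HK2) stood at 21.8 and 13.6 FPKM in MRTFB dN, against 3.05 and 2.26 FPKM in YAP 5SA and 6.90 to 8.18 FPKM in the vectors (2.33 ± 0.26, adjusted p = 0.00015). In these 2 genes and in PFKFB3, which makes the activator of phosphofructokinase (2.69 ± 0.28), the constructs lay on opposite sides of the vectors. ENO2 (3.05 ± 0.44) and adrenomedullin (ADM, 2.89 ± 0.46) were above all vectors in MRTFB dN.

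Secreted signals differed in kind, and their counts stand beside 15.2% of all loci higher and 8.41% lower. Among 11 tested EGFR ligand and ERBB receptor genes MRTFB dN was the higher at 4 and the lower at 2, and these counts were the same in all 4 fits without 1 library. EGF itself stood at 24.2 and 26 FPKM in MRTFB dN, against 0.0495 and 0.0295 FPKM in YAP 5SA and 0.0869 to 0.145 FPKM in the vectors (4.65 ± 0.17, adjusted p = 6.1e-08). The ligand genes HBEGF (3.76 ± 0.40), NRG1 (2.25 ± 0.28) and TGFA (1.89 ± 0.36) were higher as well. The receptor gene EGFR was lower, at 13.6 and 16.6 FPKM in MRTFB dN, against 52.2 and 50.4 FPKM in YAP 5SA and 23.1 to 46.9 FPKM in the vectors (-1.71 ± 0.26, adjusted p = 0.0010), and so was the ligand gene epigen (EPGN, -1.75 ± 0.34). For both, MRTFB dN lay below all 4 vectors and YAP 5SA above all 4.

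Insulin-like growth factor genes were higher at 6 of 8 and lower at 1, with 4, 4, 5 and 4 higher without 1 library. IGF1 stood at 50.5 and 31.9 FPKM in MRTFB dN and was listed at 0 in both YAP 5SA libraries, with at most 0.398 FPKM in the vectors (adjusted p = 2.4e-07). The binding protein gene IGFBP7 stood at 376 and 391 FPKM in MRTFB dN, against 57.7 and 29.0 FPKM in YAP 5SA and 6.58 to 90.2 FPKM in the vectors (3.19 ± 0.55, adjusted p = 0.0024). The lower member was IGFBP3, described above. Of all loci 15.2% were higher and 8.41% lower, beside the 6 and 1 of 8 here.

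TGF-beta and activin genes were higher at 10 of 21 and lower at 4 (median 1.33), beside 15.2% and 8.41% of all loci. Without 1 library 7, 6, 7 and 6 were higher and 0, 3, 2 and 2 lower. The bone morphogenetic protein gene BMP2 stood at 520.1 and 361 FPKM in MRTFB dN, against 1.93 and 1.6 FPKM in YAP 5SA and 2.00 to 4.89 FPKM in the vectors (7.30 ± 0.30, adjusted p = 1.2e-07). ID2, a target gene of BMP signalling, stood at 12.2 and 15.5 FPKM in MRTFB dN, against 1.148 and 1.08 FPKM in YAP 5SA and 1.09 to 2.27 FPKM in the vectors (2.80 ± 0.21, adjusted p = 6.7e-06). LTBP1, which binds latent TGF-beta in the matrix, was higher by 4.16 ± 0.58. The 4 lower members were LTBP2 (-2.58), the receptor TGFBR2 (-2.38), GDF15 (-1.88) and the ubiquitin ligase SMURF2 (-0.92). None of the 4 kept its call in every fit without 1 library, SMURF2 passed only without MRTFB dN replicate 2 (adjusted p = 0.022), and GDF15 passed in none of these fits. Without MRTFB dN replicate 1 none passed, and they stood at -2.27 (adjusted p = 0.056), -2.36 (adjusted p = 0.055), -1.75 (adjusted p = 0.14) and -0.61 (adjusted p = 0.21).

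Of 11 tested cytokine genes 1 was higher in MRTFB dN and 2 were lower, beside 15.2% and 8.41% of all loci. IL18 stood at 39.2 and 45.4 FPKM in MRTFB dN, against 351 and 523 FPKM in YAP 5SA and 62.8 to 302 FPKM in the vectors (-3.31 ± 0.42, adjusted p = 0.00035). IL33 stood at 3.90 and 5.08 FPKM in MRTFB dN and was listed at 0 in both YAP 5SA libraries, with 0.156 to 0.619 FPKM in the vectors (adjusted p = 7.4e-06). The receptor antagonist gene IL1RN was lower (-3.18 ± 0.71, adjusted p = 0.0097), and kept its call only without YAP 5SA replicate 1 (-3.30, adjusted p just under 0.05) among the 4 fits (-3.43 to -2.92, adjusted p at least 0.063 in the others).

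Interferon response genes were higher at 5 of 19 and lower at none (median 1.76), beside 15.2% and 8.41% of all loci. However, 1 vector library shared the high levels. IFI27 stood at 2917 and 1789 FPKM in MRTFB dN, against 2.46 and 1.91 FPKM in YAP 5SA, 1664 and 12.9 FPKM in the Hygro vector and 2.85 and 3.26 FPKM in the Puro vector (9.49 ± 1.71, adjusted p = 0.0030). The antiviral ubiquitin-like gene ISG15 stood at 1072 and 336 FPKM in MRTFB dN, against 5.53 and 6.92 FPKM in YAP 5SA, 1642 and 34.3 FPKM in the Hygro vector and 1.66 and 9.09 FPKM in the Puro vector (6.39 ± 1.43, adjusted p = 0.0096). Of the 5, IFI27 alone passed in every fit without 1 library. ISG15 passed only without MRTFB dN replicate 2 (7.22, adjusted p = 0.041), and the list count was 1, 3, 2 and 2. Hygro vector replicate 1 thus lay above both MRTFB dN libraries in ISG15 and just below them in IFI27, with neither construct present. Leaving this library out of the fit cannot move the differences between the constructs, only their SE, so such a fit does not check the 5 calls.

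MicroRNA host loci, chosen for mention after their values were seen, differed in both directions. These values are FPKM of the loci in libraries prepared from poly(A) RNA and do not measure mature microRNAs. The locus MIR143,MIR143HG,MIR145, known for its activity in smooth muscle, stood at 14.5 and 28.1 FPKM in MRTFB dN, against 0.0166 FPKM and a listed 0 in YAP 5SA and a listed 0 to 1.32 FPKM in the vectors (4.40 ± 0.36, adjusted p = 1.5e-05). The epithelial locus MIR205,MIR205HG stood at 45.4 and 94.9 FPKM in MRTFB dN, against 335 and 299 FPKM in YAP 5SA and 189.8 to 456 FPKM in the vectors (-2.25 ± 0.43, adjusted p = 0.0043). The locus MIR221,MIR222 stood at 0.359 and 1.76 FPKM in MRTFB dN, against 9.92 and 10.8 FPKM in YAP 5SA and 3.58 to 7.18 FPKM in the vectors (-2.55 ± 0.45, adjusted p = 0.0026). The mature sequences encoded there, from RefSeq on GRCh38.p14, are shown with the seed (bases 2 to 8) in capitals because the seed decides which transcripts a microRNA can pair with. The microRNAs of the third locus share 1 seed and those of the other loci have seeds of their own.
hsa-miR-143-3p: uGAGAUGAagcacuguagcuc
hsa-miR-145-5p: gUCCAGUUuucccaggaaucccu
hsa-miR-205-5p: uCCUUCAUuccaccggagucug
hsa-miR-221-3p: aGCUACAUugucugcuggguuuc
hsa-miR-222-3p: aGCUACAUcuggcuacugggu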

How the data were processed

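RNA was measured by paired-end sequencing of stranded mRNA libraries on an Illumina NextSeq, per the labels' protocols. The authors deposited 1 table of FPKM values for 14 libraries. Per the submitters' processing notes, Bowtie, TopHat, Cufflinks and Cuffnorm were used with hg19, in versions not given in the sources used here, and whether reads of the introduced cDNA count in MKL2 or YAP1 is not given either. FPKM carries no counts, so the precision from depth is unknown. A locus that merges several genes has 1 value for all of them. From these values log2(FPKM + 1) was computed for named loci with 1 FPKM or more in at least 2 of the 4 compared libraries. limma 3.58.1 (R 4.3.3) fitted a linear model on group over 12 libraries in 6 groups, with 6 residual degrees of freedom and an intensity trend, two-sided and with Benjamini-Hochberg adjustment over 11862 loci at 0.05. The MRTFB dN dPY group was left out because 1 of its libraries lacks values for part of the genome. All adjusted p-values in the text are from limma. The script was tested on simulated data first. Members and gene lists were chosen with earlier results of these data known. Named genes were the introduced genes and partner factors, the 10 largest differences in each direction, up to 6 called members per list and a set of reported targets. The 10 were taken from called loci with a mean of 3 FPKM or more and no overlap between the constructs. Short RNA loci were left out of that ranking. Others were chosen after their values were seen. A fit without 1 compared library leaves a lone library whose spread is assumed to be that of the other groups. Figures and counts used Python 3.11.15, numpy 2.4.6, pandas 2.3.3 and matplotlib 3.10.9.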

Additional observations from a re-analysis of the deposited data

How the results depend on the processing

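The count of loci higher in MRTFB dN (1802) ranged from 838 to 1268 without 1 of the 4 compared libraries, and that of lower loci (998) from 311 to 556. Without 1 vector library the counts were 2102 higher and 1304 lower (Puro vector replicate 1) and 1839 and 1059 (Hygro vector replicate 1). With only the 4 compared libraries in the fit, 2555 were higher and 1989 lower. The other alternatives, among them a pseudocount of 0.1, no filter on low values, scaling by the median of ratios and all 14 libraries, gave 1606 to 2066 higher and 754 to 1299 lower. The fits without short RNA loci, without Hygro vector replicate 1, with isolated zeros as missing and with the crossed replicate block were chosen after seeing the data. Deviations of same-numbered MRTFB dN and YAP 5SA libraries correlated at -0.155, so the replicate numbers showed no pairing between the constructs. Over all pairs of groups in the fit the value ran from -0.313 (YAP 5SA with MRTFB dN Y305A/dPY) to 0.76 (MRTFB dN Y305A with MRTFB dN Y305A/dPY). MRTFB dN correlated with MRTFB dN Y305A at 0.411 and with MRTFB dN Y305A/dPY at 0.451. The main fit treats all libraries as independent. Where deviations are shared between groups, its 6 residual degrees of freedom are overstated and its p-values may be too small. A replicate block gave 1864 higher and 1084 lower, and a crossed replicate block 2066 and 1299. Of 153 named genes past the threshold 83 passed in all 4 fits without 1 compared library. Signs turned only in genes that did not pass: ELK3 lay between -0.05429 and 0.5978, MKL1 between -0.473 and 0.01776, S100A8 between -0.218 and 0.7108 and TEAD4 between -0.09689 and 0.2883 (-0.07692 without YAP 5SA replicate 2). The cause was not tested.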

Other observations

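Genes of the unfolded protein and integrated stress responses were higher in MRTFB dN at 8 of 24 and lower at 1 (median 1.10), and at 2, 3, 2 and 2 higher without MRTFB dN replicate 1, MRTFB dN replicate 2, YAP 5SA replicate 1 and YAP 5SA replicate 2. HERPUD1, which acts in the degradation of misfolded proteins, stood at 71.7 and 69.7 FPKM in MRTFB dN, against 17.8 and 14.4 FPKM in YAP 5SA and 21.2 to 60.1 FPKM in the vectors (2.07 ± 0.31, adjusted p = 0.00097). Among 22 immediate early and AP-1 genes 4 were higher and none lower (2, 1, 2 and 1 higher in the same 4 fits). The share of higher members in this list (18.2%) was near the 15.2% of all loci. In the stress response list 33.3% were higher and 4.17% lower, beside 15.2% and 8.41% of all loci. DUSP5, a phosphatase that inactivates ERK, stood at 100.9 and 79.8 FPKM in MRTFB dN, against 3.18 and 2.06 FPKM in YAP 5SA and 2.13 to 8.57 FPKM in the vectors (4.67 ± 0.38, adjusted p = 1.3e-05).

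Of 23 cholesterol synthesis genes 3 were higher and 2 lower, and of 12 proteases and inhibitors 2 were higher and 1 lower. These counts lie near the shares of all loci, 15.2% higher and 8.41% lower. The matrix protease gene ADAMTS1 was above the vectors with both constructs, at 133 and 151 FPKM in MRTFB dN, 12.2 and 7.38 FPKM in YAP 5SA and 0.135 to 3.1 FPKM in the vectors (3.77 ± 0.49, adjusted p = 0.00037). Of 16 mammary epithelial lineage genes 2 were higher and 1 lower (12.5% and 6.25%), near the 15.2% and 8.41% of all loci. The lower one, the epithelial factor EHF, was below all vectors with both constructs, at 1.58 and 1.48 FPKM in MRTFB dN, 7.21 and 8.89 FPKM in YAP 5SA and 11 to 27.4 FPKM in the vectors (-1.83 ± 0.33, adjusted p = 0.0031).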
